A study of Mus musculus with 6 samples.

Results

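The 10 genes described here, Rgs1, Rgs2, Rgs3, Rgs4, Rgs5, Rgs10, Rgs16, Rgs17, Rgs18 and Rgs19, encode regulators of G-protein signalling (RGS proteins). They were selected by gene symbol from a fixed list, out of 18193 genes with a probe set on the array. The list was drawn up with earlier results of these data known. Counts of its members set beside shares of all genes are therefore a description. Every probe set annotated with 1 of these symbols was taken, 26 in all. Bladder cells were obtained from newborn male FVB/N mice at postnatal day 2 that carried 2 transgenes, SMGA/EGFP (green fluorescent protein under the smooth muscle gamma actin promoter) and SMAA/EYFP (yellow fluorescent protein under the smooth muscle alpha actin promoter). Sorting gave green cells that lacked yellow fluorescence (EGFP+ EYFP-, here single-positive, 3 arrays) and cells with both colours (EGFP+ EYFP+, here double-positive, 3 arrays). All animals carried both transgenes, so the groups differ in which fluorescence the sorted cells displayed and not in genotype, and the sort reads transgene promoters rather than the actin genes themselves. The labels assign both groups to the detrusor, the muscle of the bladder wall. They say that samples were not pooled, but leave unsaid whether each array had its own animal or litter. The p-values therefore describe the spread among these 6 samples, part of which may be technical.

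RGS proteins end signals from receptors that act through heterotrimeric G proteins. When such a receptor is activated, the alpha subunit of its G protein binds GTP and separates from the beta and gamma subunits, and the RGS domain speeds the hydrolysis of that GTP, so that the subunits rejoin and the signal stops. In smooth muscle this limits contraction driven by receptors for acetylcholine, angiotensin, endothelin and noradrenaline, and in blood cells it limits migration toward chemokines and platelet activation. Most of the genes described here belong to the R4 subfamily of small RGS proteins, Rgs17 and Rgs19 belong to the RZ subfamily, and Rgs10 belongs to the R12 subfamily.

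Expression is given as signal intensity in arbitrary units, and changes as the difference in log2(signal + 25.042), double-positive minus single-positive, which understates the change of dim genes. Each gene was read from its brightest probe set, and all 10 genes were bright enough to be tested. On that scale 2 of the 10 fell in the double-positive arrays at an adjusted p under 0.05 in limma, Rgs4 and Rgs5, against 4.38% of all 13464 genes tested. None rose in limma, against 1.98% of all genes (6.37% in either direction), and the 6 members with an unadjusted p under 0.05 (17.6% of all genes had one) were all lower in the double-positive arrays. Those same 6, Rgs1, Rgs2, Rgs4, Rgs5, Rgs16 and Rgs18, had 3 double-positive values below all 3 single-positive values, a pattern seen in 11.9% of all genes tested. The median change was -0.95 over the 10 genes and 0.02 over all genes. Rgs18 was bright enough only through its single-positive signals and so had to differ. Without it 5 of 9 genes had an unadjusted p under 0.05, the same 5 did not overlap, and the median was -0.89. The median is taken over members that differ widely, since the remaining 4 genes, Rgs3, Rgs10, Rgs17 and Rgs19, had changes between -0.18 and 0.18. When every probe set was tested instead of 1 per gene, 21 of the 26 were bright enough, and none passed in either direction in limma, against 2.42% lower and 1.01% higher of 27022 probe sets. Of those 21, 13 had an unadjusted p under 0.05, against 13.6% of all probe sets. In 14 the groups did not overlap, all 14 lower in the double-positive arrays, against 10.1% of all probe sets. These 14 are repeat readings of the same 6 genes on the same arrays, not separate members. They include the Rgs18 probe set that had to differ.

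**Figure D1:**
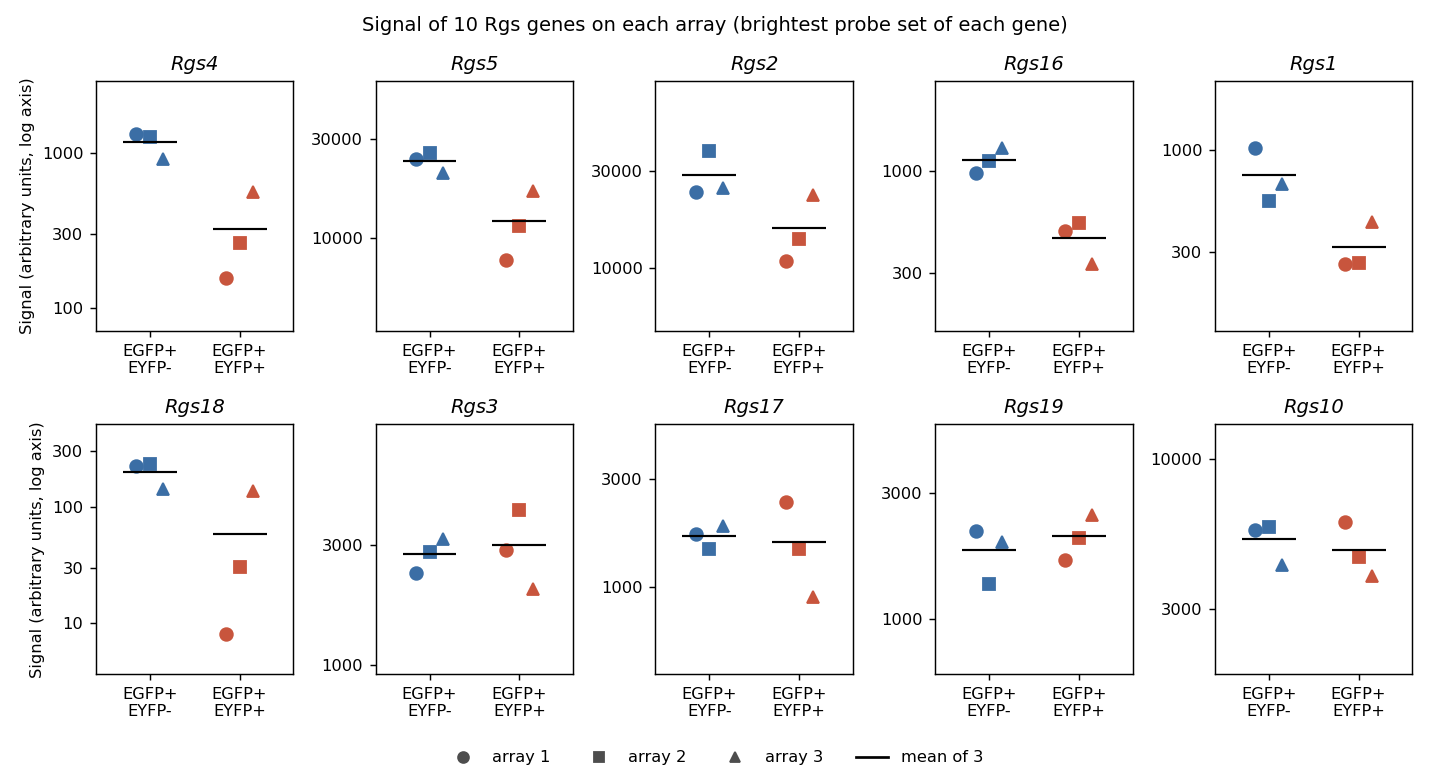
Signal of each Rgs gene (arbitrary units, log axis) on the 3 single-positive (EGFP+ EYFP-) and 3 double-positive (EGFP+ EYFP+) arrays, with a line at each group's mean. The groups are apart for Rgs4, Rgs5, Rgs2, Rgs16, Rgs1 and Rgs18 and overlap for Rgs3, Rgs17, Rgs19 and Rgs10.

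The 6 genes whose groups did not overlap share a chromosome. In the RefSeq annotation of mouse assembly GRCm38.p6, used here for names, order and promoter sequence because the array table names no build, Rgs1, Rgs2, Rgs4, Rgs5, Rgs16 and Rgs18 all lie on chromosome 1. Among protein-coding genes, Rgs4 and Rgs5 are next to each other, Rgs2 and Rgs1 are separated by Rgs13 alone, and Rgs1 and Rgs18 by Rgs21 alone. The 4 members elsewhere all had overlapping groups. Rgs18 was bright enough only through its single-positive signals and so had to differ, which leaves 5 genes without overlap. Of 757 tested genes on chromosome 1, 16.8% had double-positive values entirely below the single-positive ones. This arrangement was noticed after the values were seen and was not tested. The other RGS genes of chromosome 1 are Rgs7, Rgs8, Rgs13, Rgs20 and Rgs21. Of these 5 only Rgs8, next to Rgs16, was tested, with a log2 change of -0.96 (SE 0.49, adjusted p = 0.370) and overlapping groups. Rgs8, too, was bright enough only through its single-positive signals and so had to be lower in the double-positive arrays.

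Promoter sequences of RefSeq were at hand for 8 of the 10 genes, all but Rgs1 and Rgs18. They came in 11 windows of 250 bases before an annotated start. The last 120 of these bases are shown for the 4 chromosome 1 members that had an entry, because their signals were all lower in the double-positive arrays. The capitals mark the CCAAT box (its letters as named), the TATA box (TATAAA) and the GC box (GGGCGG) on either strand, overlapping matches included. All are written from 5′ to 3′ on the gene's strand, in GRCm38.p6: Rgs5 at chr1:169655381-169655500 (plus strand), Rgs4 at chr1:169747643-169747762 (minus strand), Rgs2 at chr1:144004150-144004269 (minus strand) and Rgs16 at chr1:153740233-153740352 (plus strand).
Rgs5: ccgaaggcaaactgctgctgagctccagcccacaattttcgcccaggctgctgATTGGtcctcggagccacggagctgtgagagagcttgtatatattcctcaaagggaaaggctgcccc
Rgs4: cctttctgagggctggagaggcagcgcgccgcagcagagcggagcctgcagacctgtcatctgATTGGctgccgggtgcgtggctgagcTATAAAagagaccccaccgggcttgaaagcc
Rgs2: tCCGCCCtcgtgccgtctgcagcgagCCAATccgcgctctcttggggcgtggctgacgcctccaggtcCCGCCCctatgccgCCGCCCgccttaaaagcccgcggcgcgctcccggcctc
Rgs16: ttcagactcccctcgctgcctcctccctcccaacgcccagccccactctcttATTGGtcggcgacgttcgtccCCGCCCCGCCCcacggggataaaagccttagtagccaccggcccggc

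Each of these 4 promoters held 1 CCAAT within its 250 bases, whose first base lay 67, 57, 94 and 68 bases before the start of Rgs5, Rgs4, Rgs2 and Rgs16. None of the 7 windows of Rgs3, Rgs10, Rgs17 and Rgs19 held it, and 33.8% of 32851 mouse promoter windows of the same length did. Several of the 7 windows belong to Rgs19, and some of those overlap. This comparison was drawn after the values were seen, lacks Rgs1 and Rgs18, and was not tested. TATAAA was found 31 bases before the start of Rgs4 and in 2 windows of Rgs3, against 12.4% of all windows. GGGCGG was present in 7 of the 11 windows, among them those of Rgs2 and Rgs16 but not those of Rgs4 and Rgs5, against 32.7% of all windows. Neither a CArG box, the sequence bound by serum response factor in smooth muscle promoters (1.47% of all windows), nor TGACGTCA, the cyclic AMP response element (1.55%), was found in any of the 11. These matches describe letters in short windows, and no binding was measured.

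Rgs4 (1416286_at), an R4 protein that acts on Gi and Gq alpha subunits and is known from heart, brain and pericytes, fell in the double-positive arrays. Its signal was 1325, 1273 and 917 on the single-positive arrays and 155, 263 and 556 on the double-positive arrays. The highest double-positive value, on array 3, lay below the lowest single-positive one. The log2 change was -1.93 (SE 0.45, adjusted p = 0.0318), or 3.80-fold lower. A second probe set of Rgs4 (1448285_at), almost as bright, gave 874, 941 and 1411 in single-positive and 39.3, 794 and 726 in double-positive arrays, again without overlap. There 1 double-positive array stood far below the other two, and the log2 change of -1.66 did not pass (SE 0.87, adjusted p = 0.474 over all probe sets). The third probe set was dimmer, with signals from 212 to 239 in the single-positive and from 98.2 to 128 in the double-positive arrays (log2 change -0.88, SE 0.38, adjusted p = 0.354 over all probe sets). All 3 probe sets therefore separated the groups, with point estimates that ranged from -1.93 to -0.88.

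Rgs5, a further R4 protein of vascular mural cells and a common marker of pericytes, also fell. Its brightest probe set (1417466_at) gave 24079, 25780.3 and 20619 on the single-positive and 7901, 11521 and 16842 on the double-positive arrays. Double-positive array 3 came closest to the single-positive range. The log2 change was -1.02 (SE 0.25, adjusted p = 0.0403), or 2.03-fold lower. Probe sets 1420941_at and 1420942_s_at, which were dimmer, had larger log2 changes of -1.64 (SE 0.44) and -1.46 (SE 0.37). On the first of these the single-positive signals were 1201, 1409 and 1134 and the double-positive signals 241, 730.3 and 309, and neither passed over all probe sets (adjusted p = 0.0911 and adjusted p = 0.0763). The remaining Rgs5 probe set, 1420940_x_at, whose suffix marks probes that can bind other transcripts, was too dim to test, with signals from 19.8 to 147 and overlapping groups. Its log2 change of 0.81 went the opposite way. The suffix of 1420942_s_at likewise marks probes shared by several transcripts. With the mean of all probe sets the Rgs5 change was -0.83 and did not pass (adjusted p = 0.178 in limma).

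The calls of Rgs4 and Rgs5 rest on all 6 arrays together. Leaving out any 1 of the 5 arrays other than double-positive array 3 ended both calls. For Rgs5 the adjusted p was 0.123, 0.165 and 0.0887 without single-positive arrays 1, 2 and 3, and 0.103 and 0.104 without double-positive arrays 1 and 2. For Rgs4 the first probe set stood for the gene without single-positive array 3 (-2.09, adjusted p = 0.0781) and without double-positive array 2 (-1.87, adjusted p = 0.0855). Without single-positive arrays 1 and 2 and double-positive array 1 the second probe set became the brightest and took its place, so that array and probe set changed together. The log2 changes were then -1.79, -1.74 and -0.46 (adjusted p = 0.452, 0.538 and 0.722), on a probe set that did not pass with all 6 arrays either. Without double-positive array 3 the Rgs4 and Rgs5 log2 changes were -2.38 and -1.29 and passed (adjusted p = 0.00749 and adjusted p = 0.00542), and Rgs2 passed with them (-1.19, adjusted p = 0.0137).

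**Figure D2:**
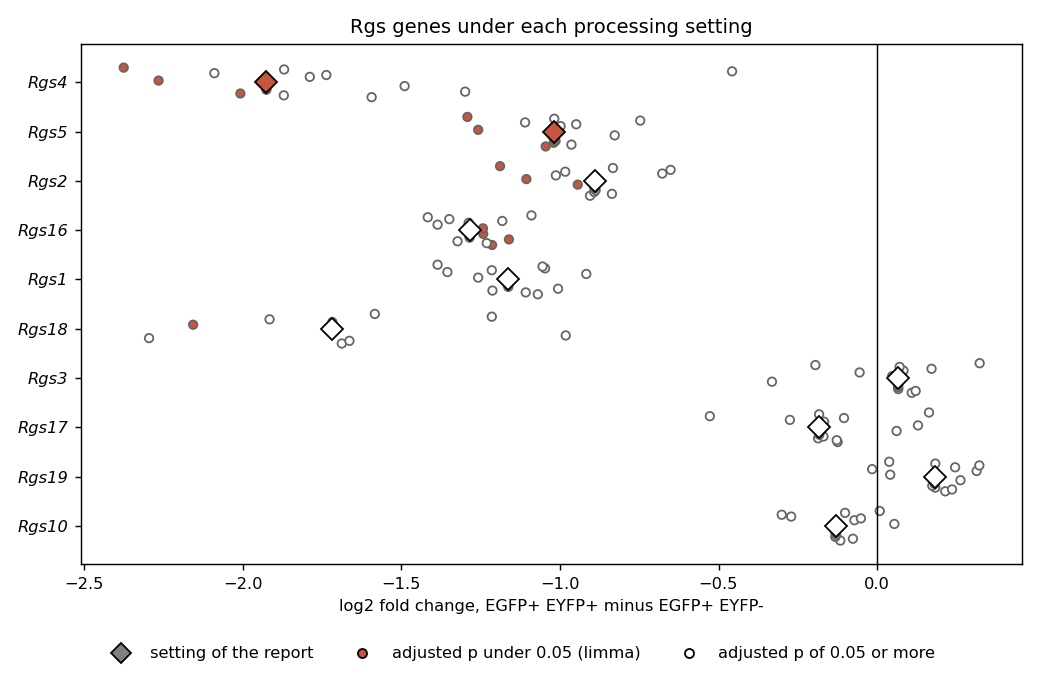
Log2 fold change (double-positive minus single-positive) of each Rgs gene in the setting of the report (diamonds) and under each alternative processing or left-out array (circles), filled where the adjusted p was under 0.05. Rgs4, Rgs5, Rgs2, Rgs16 and Rgs1 stay below 0 throughout, and Rgs18 does wherever it was tested. Rgs4 reaches from -2.38 to -0.46, and Rgs3, Rgs17, Rgs19 and Rgs10 lie on both sides of 0.

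Rgs2, an R4 protein that preferentially acts on Gq and restrains vascular contraction, was measured by 4 probe sets, and all 4 separated the groups. The brightest (1419248_at) gave 23566, 37521 and 24542 on the single-positive arrays and 10769, 13861 and 22735 on the double-positive arrays. Double-positive array 3 was only slightly below the lowest single-positive array. The log2 change was -0.89 (SE 0.28), which did not pass (adjusted p = 0.10). On the other 3 probe sets it was -1.04, -0.98 and -0.86. The suffix of the first of these, 1447830_s_at, marks probes shared by several transcripts. The 4 estimates of Rgs2 thus differed by less than 1 SE. With the mean of all probe sets the change was -0.94 and passed (adjusted p = 0.0429).

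Rgs16, an R4 protein that acts on Gi and Gq and is induced by mitogens and inflammatory signals in several cell types, lay just outside the threshold. Its signals (1455265_a_at) were 975, 1121 and 1302 in single-positive and 490.3, 541 and 335 in double-positive arrays. On this probe set double-positive array 3 was the lowest array, and on the second probe set of Rgs16 it was the highest of its group. The log2 change was -1.29 (SE 0.34, adjusted p = 0.0535). It passed under 6 of 17 alternatives and had a log2 change from -1.42 to -1.09 over them, the narrowest range among the 6 genes without overlap. A second probe set gave 307, 454 and 511 against 116, 131 and 191 (log2 change -1.39, SE 0.41). The third, too dim to test, had signals of 130, 120.2 and 112 against 83.5, 20.3 and 45.7, also without overlap.

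Rgs1 and Rgs18 are R4 proteins known chiefly from blood cells. Rgs1, which limits chemokine responses of lymphocytes and other leukocytes, had signals of 1020.2, 544 and 666 on the single-positive arrays and 258, 261 and 428 on the double-positive arrays. The groups did not overlap, and the log2 change of -1.16 did not pass (SE 0.39, adjusted p = 0.134). Rgs18, an RGS protein of platelets and megakaryocytes, had signals of 221, 230.4 and 141 against 8.02, 30.1 and 136. Double-positive array 3 nearly reached the lowest single-positive array, while the other two were close to the dim end of the array. The log2 change of -1.72 (SE 0.59, adjusted p = 0.141) did not pass, and since the double-positive mean log2 value of 6.05 was under the level for testing (6.82), its size depends on the offset. With a smaller offset it was -2.30 and with a larger one -0.98. A second, untested probe set of Rgs18 gave 82.5, 154 and 54.5 against 35.3, 38.6 and 36.1.

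The remaining members overlapped between the groups. Rgs3, an R4 protein with long and short isoforms, had 2322, 2819 and 3190.4 in single-positive and 2868, 4156 and 2014 in double-positive arrays, with a log2 change of 0.07 and a 95% interval from -0.62 to 0.75. Its second tested probe set gave 0.01 on the same scale, and 2 more were too dim to test. Rgs17, which acts on Gz and Gi, had 1706, 1466 and 1864 against 2387, 1471 and 900.1. The change was -0.18 with a 95% interval from -1.0 to 0.64, and its other probe set went the opposite way (0.31). Rgs19, an RZ protein that binds Gi alpha subunits, had 2155, 1355 and 1959 against 1667, 2026 and 2484, a change of 0.18 with a 95% interval from -0.49 to 0.85. Rgs10, which acts on Gi and is abundant in microglia, macrophages and platelets, had 5646, 5809.8 and 4276 against 6007, 4547 and 3905. Its change of -0.13 had a 95% interval from -0.68 to 0.42. These 4 p-values miss the threshold without showing that the groups were alike, and the intervals state which changes the data allow.

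**Figure D3:**
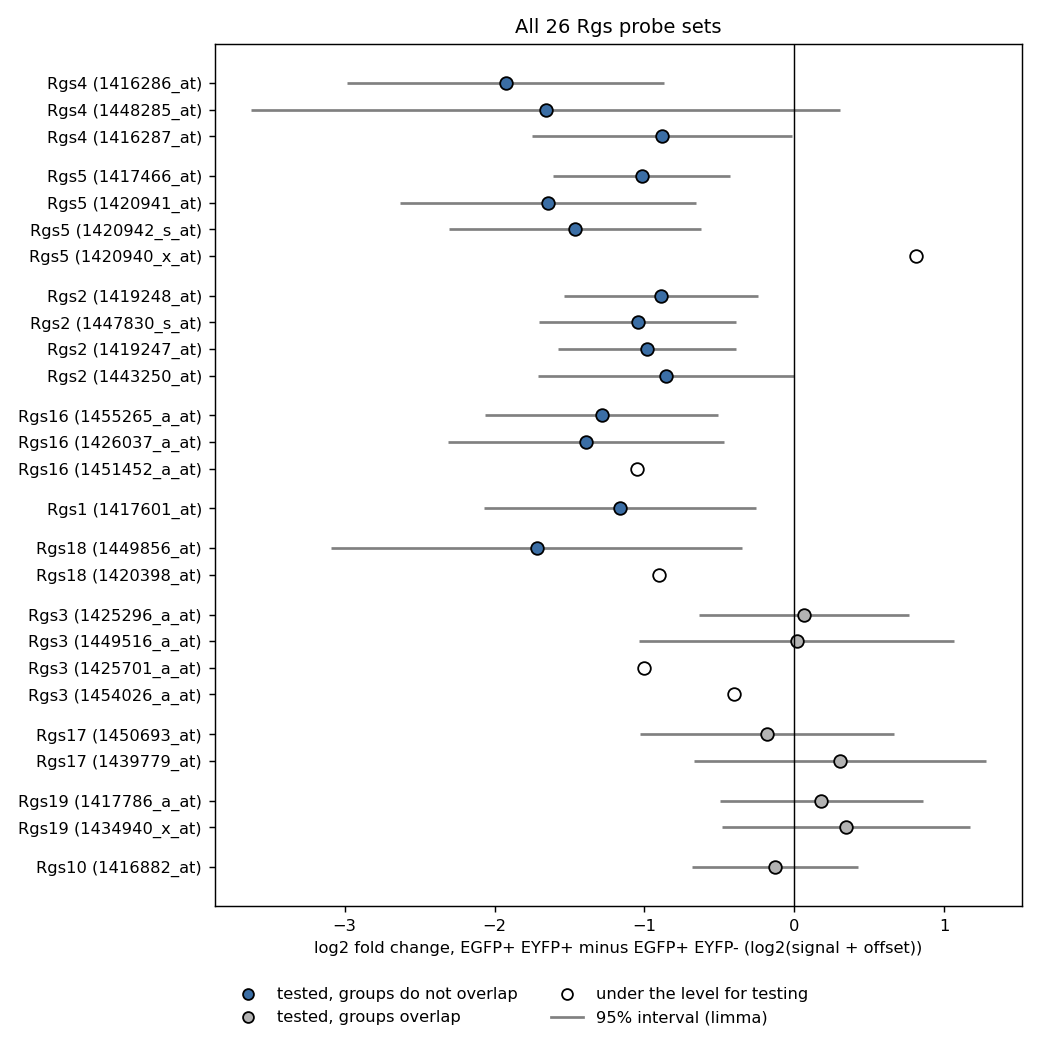
Log2 fold change of each of the 26 Rgs probe sets, with the 95% interval of the limma fit over probe sets where the probe set was tested. All 14 tested probe sets of Rgs1, Rgs2, Rgs4, Rgs5, Rgs16 and Rgs18 separate the groups (filled dark), the 7 of Rgs3, Rgs10, Rgs17 and Rgs19 do not (grey), and 5 were too dim (open).

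Array 3 of the double-positive group held the highest signal of that group for Rgs1, Rgs2, Rgs4, Rgs5 and Rgs18 on the probe sets used for the genes, but not on most of their other probe sets. Of the 14 tested Rgs probe sets whose groups did not overlap, it was the highest double-positive array on 7, the lowest on 5 and between the other two on 2. Its summed signal of 15 contractile genes of the detrusor was 220608, within the range of the other double-positive arrays (219056 and 281192), and that of 21 leukocyte markers was 15234, between 14086 and 22174. Deposited signals had been scaled to 1 trimmed mean per array, 1500.01, and the log2 signals of 2 arrays correlated across probe sets with Pearson's r of 0.950 to 0.956 among single-positive, 0.935 to 0.948 among double-positive and 0.921 to 0.942 between arrays of different groups. The labelled tissue was visible in its contractile genes, all 15 of which were bright enough to test, and 11 of them fell in the double-positive arrays (median log2 change -2.54), led by Synm, Actg2, Des and Tagln. Actg2, whose promoter drives EGFP, had a log2 change of -2.54 although both groups were sorted as EGFP-positive, and Acta2, whose promoter drives EYFP, had -0.07 (adjusted p = 0.904).

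Many, but not all, markers of other cell types were lower in the double-positive arrays, as the 6 Rgs genes were. Of 17 leukocyte markers tested, 15 fell and none rose. Their summed signal, over all 21 listed, was 99340 to 142237 in single-positive and 14086 to 22174 in double-positive arrays, and the 4 of smallest p were Mrc1, Laptm5, Cd14 and C1qb, genes of macrophages and monocytes (log2 changes from -3.32 to -2.66). Beside Rgs1, receptors for leukocyte chemoattractants, which signal through Gi, showed 4 falls among 6 tested. These were C3ar1 (log2 change -3.23), Cxcr4 (-2.94), Ccr1 (-1.99) and C5ar1 (-1.69). The summed signal of the list was 5677 to 8556 in single-positive and 1003 to 1702 in double-positive arrays. Beside Rgs18, the 7 platelet and megakaryocyte markers gave 2 falls among 6 tested, Pf4 (-2.59) and Ppbp (-2.03). Cxcr4, C5ar1 and Ppbp lay under the level for testing in the double-positive arrays, passed the filter through the single-positive arrays alone and have changes that depend on the offset. The summed platelet signal was 19076 to 30445 against 4280.3 to 6410, most of it Pf4, which macrophages also express. The platelet receptor genes Itga2b, Gp1bb, Gp5 and Gp6 had log2 changes between 0.06 and 0.19 and did not pass. Rgs10, a member abundant in macrophages and platelets, had overlapping groups and a log2 change of -0.13 (adjusted p = 0.862 in limma).

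Beside Rgs4 and Rgs5, most pericyte markers did not pass. Of 10 tested, 1 fell, Mcam (log2 change -2.20), none rose and 9 stayed short of the threshold, with a list median of -0.43. Pdgfrb, a growth factor receptor of pericytes that fibroblasts and smooth muscle also express, had 9660 ± 1796 in single-positive and 13584 ± 2457 in double-positive arrays (SD, n = 3 each), a log2 change of 0.49 (adjusted p = 0.275). Abcc9 and Kcnj8, which form the potassium channel of pericytes, had -1.25 and -1.08 and did not pass, nor did Cspg4 at -0.63 and Ndufa4l2, which went the other way at 2.05. The summed pericyte signal was 32544 to 42057 in single-positive and 19468 to 31054 in double-positive arrays. In the remaining lists, 7 of 15 endothelial, 5 of 9 nerve and Schwann cell and 9 of 14 urothelial markers fell and none rose. They were led by Lyve1, Cdh5, Cldn5 and Esam in endothelium and by Perp, Krt15, Upk1b and Upk3a in urothelium, and the nerve genes were Erbb3, Snap25, L1cam, Prph and Foxd3. Krt15, Snap25 and Foxd3 too were under the level for testing in the double-positive arrays. Their sums were 44274 to 52191 against 12503 to 18347 for endothelium, 11667 to 12007 against 1490 to 2716 for nerve and 28829 to 47046 against 5354 to 9311 for urothelium. No listed marker had a signal of 0 on any array. The part that other cell types took in the Rgs values was not tested, and in RNA of sorted cells fewer cells of a type and less RNA per cell cannot be told apart.

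**Figure D4:**
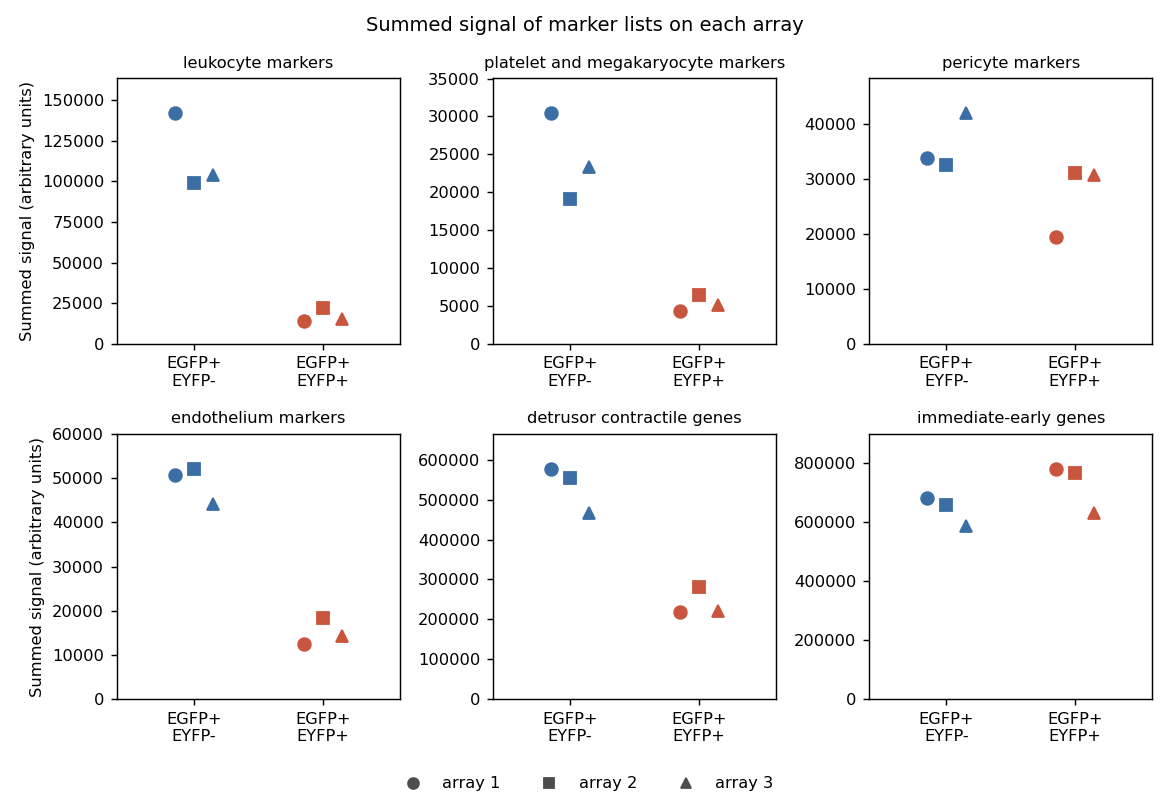
Summed signal (arbitrary units, axis from 0) of the brightest probe sets of 6 gene lists on each array. Leukocyte, platelet, endothelium, contractile and pericyte sums are lower on all 3 double-positive arrays, with the pericyte groups nearest to each other at 32544 against 31054, and the immediate-early sums overlap.

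Several Rgs genes, Rgs1, Rgs2 and Rgs16 among them, can be induced within minutes to hours of cell stimulation, so genes of the immediate-early response, which tissue digestion can switch on, were read beside them. Of 20 such genes tested, Fos, Jun and Egr1 included, none passed in either direction in limma, and 4 of the 20 had lower values in the double-positive arrays (median log2 change 0.19). The 5 with an unadjusted p under 0.05, Junb (1.46), Ier2 (0.45), Egr2 (0.43), Nr4a1 (0.42) and Socs3 (0.33), were all higher in the double-positive arrays, Junb alone with overlapping groups. The summed signal of the list was 586031 to 681352 in single-positive and 631562 to 781145 in double-positive arrays, which overlapped.

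The G proteins on which RGS proteins act came next. None of 12 G alpha genes tested passed in either direction in limma, and 3 had an unadjusted p under 0.05 (median log2 change -0.11). Gnaq, the main partner of Rgs2, had -0.54 (SE 0.20, adjusted p = 0.183), Gnai2 and Gnai3 had 0.21 and -0.29, Gnao1 had -1.23 (adjusted p = 0.0989) and Gnaz, the partner of Rgs17, had -1.08 (adjusted p = 0.170). Among 13 beta and gamma subunits tested 1 fell, Gng4, with 1086 ± 263 in single-positive and 123 ± 29.2 in double-positive arrays (SD, n = 3; log2 change -2.90, SE 0.38, adjusted p = 0.0016). Of 12 effectors, receptor kinases and arrestins, 1 fell, Plcb4, a phospholipase C that Gq activates. Its signal was 42725 ± 2763 in single-positive and 19299 ± 4810.1 in double-positive arrays (SD, n = 3), a log2 change of -1.17 (SE 0.18, adjusted p = 0.00415). The other 11 did not pass, among them Grk4 (1.05), Grk5 (0.83) and Arrb2 (-0.74), the 3 with an unadjusted p under 0.05. Plcb1 and Plcb3, of the same family as Plcb4, had log2 changes of -0.14 and 0.22. The list medians were 0.04 and 0.23.

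Receptors for contractile and vasoactive signals, whose output RGS proteins limit, went both ways. Of 17 tested, 2 rose, 2 fell and 13 did not pass (median log2 change -0.08). Bdkrb2, the bradykinin B2 receptor, rose, with 402 ± 47.9 in single-positive and 3168 ± 363 in double-positive arrays (SD, n = 3; log2 change 2.90, SE 0.29, adjusted p = 0.000478). Avpr1a, the vasopressin V1a receptor, had 3.08 (SE 0.40). P2ry6, a receptor for UDP, and Ptger3, a prostaglandin E2 receptor, had -2.47 (SE 0.43) and -1.41 (SE 0.36). All 4 couple to the Gq or Gi proteins on which R4 proteins act. Agtr2, an angiotensin receptor, had -0.70 (adjusted p = 0.0752) and Agtr1a had -0.87 (adjusted p = 0.244).

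Of the 11 other RGS genes, 9 had a probe set, 6 were tested and none passed in either direction in limma (0 had an unadjusted p under 0.05), with log2 changes from -1.08 (Rgs11) to 0.99 (Rgs6). Their median was 0.06. Rgs8 and Rgs11 were under the level for testing in the double-positive arrays and passed the filter through the single-positive arrays alone. Rgs12, a multidomain member of the R12 subfamily like Rgs10, had 1288 ± 326 in single-positive and 2084 ± 1030.4 in double-positive arrays (SD, n = 3), and Rgs9 and Rgs14 had log2 changes of 0.08 and 0.03.

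Among all tested genes with a gene name, the patterns most like that of Rgs4 over the 6 arrays were those of Ddx6 (Pearson's r = 0.998), Pdgfa (0.997) and Csf2rb2 (0.995). Those most like Rgs5 were Bank1 (0.998), Ddx6 (0.996) and Pdgfa (0.994). These correlations take in the difference between the groups as well as that between arrays of a group, and share the 6 arrays. The log2 differences between the groups were far apart all the same, from -0.32 for Ddx6 to -3.41 for Bank1.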

How the data were processed

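RNA of the 6 sorted samples was amplified in 2 rounds, biotin-labelled and hybridised to Affymetrix MOE430 arrays, per the labels' protocols. In the deposited table every probe set has an intensity on a linear scale. GCOS is named per the submitters' processing notes, with its algorithm and scaling target not given in the sources used here. Scaling hides differences in total RNA. The 2 rounds of amplification favour 3′ ends, and no detection calls were used.

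Probe sets (45037 without 64 controls) were named from the platform annotation where it gave 1 symbol (34945), several (932, unnamed) or none (9160). RefSeq matched 34741 Entrez identifiers. To each signal 25.042, the 20th percentile of all values, was added before log2 was taken. Each gene took its brightest probe set, and those with a mean above the 40th percentile (6.82) were fitted with limma 3.58.1 in R 4.3.3 (lmFit, eBayes with trend). Tests were two-sided, and p-values were adjusted by Benjamini-Hochberg, once over all genes and once over all probe sets. The fit was run on simulated data with independent noise and changes larger than those of the Rgs genes, so calls of their size were not examined.

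Members and lists were chosen with earlier results of these data known. Named were all members, of each list the genes past the threshold (the 4 of smallest p where over 5), and the 3 genes most correlated with each Rgs gene that passed. Others named were chosen after their values were seen. Alternatives covered normalization, offset, filter, probe set choice, variance trend, array weights, replicate block and each array left out. No 2 arrays shared over 13 values, and no batch is labelled.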

Additional observations from a re-analysis of the deposited data

How the results depend on the processing

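Each gene kept its sign under all 17 alternatives for Rgs1, Rgs2, Rgs4, Rgs5 and Rgs16, and under all 12 in which Rgs18 was tested. In the report's setting Rgs18 was bright enough only through its single-positive signals, so its kept sign is a description. Calls were less stable. The 2 Rgs genes called lower became 0 with median centring or with no filter on dim genes, 1 without a variance trend (Rgs16) and 5 with array weights (Rgs2, Rgs4, Rgs5, Rgs16 and Rgs18), and ranged from 0 to 3 when 1 array was left out. With the mean of all probe sets the 2 called were Rgs2 and Rgs16, and with quantile normalization or the larger offset Rgs5 and Rgs16. In both of these settings the second probe set of Rgs4 (1448285_at) was the brightest, so that setting and probe set changed together. With quantile normalization its log2 change was -1.59 (adjusted p = 0.371 in limma). With the larger offset it was -1.30 (adjusted p = 0.309). With the mean of all probe sets, too, Rgs4 was no longer read from its first probe set alone. Rgs4 passed under 6 alternatives and Rgs5 under 8. The Rgs probe sets called lower, 0 in the report's fit, were 2 with the filter at the 60th percentile, 1 without a variance trend and 10 with array weights, and ranged from 0 to 3 with 1 array left out. Of all genes tested, 857 were called, 1345 with array weights and 466 to 1084 with 1 array left out. The cause of these changes was not tested. Replicate numbers gave no pairing by the labels. Deviations of same-numbered arrays correlated at 0.19, 0.05 and 0.02, and single-positive array 3 correlated better with another number. With the replicate number as a block, 1014 genes and 3 Rgs genes (Rgs2, Rgs4 and Rgs5) were called. The number of arrays limits precision, and Rgs18 lies near the dim end of the signal range.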

Other observations

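The genes beside the chromosome 1 members did not all follow them. Uchl5, a deubiquitinating enzyme next to Rgs2, had a log2 change of -0.63 (SE 0.32, adjusted p = 0.354) with groups that did not overlap. Nuf2, a kinetochore gene next to Rgs5, had -0.10 (SE 0.27, adjusted p = 0.912). Brinp3, next to Rgs18, went the opposite way with 1.87 (SE 0.52, adjusted p = 0.0671), again without overlap between groups. These neighbours were chosen after the values of the Rgs genes were seen, as the nearest protein-coding genes that were tested.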
